A study of Populus euphratica with 12 samples.

Results

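A miRNA precursor is an RNA hairpin from which a short duplex is cut. One strand of the duplex, the mature miRNA, is usually kept in an Argonaute protein and guides it to target RNAs. The other strand, the star sequence, is usually degraded, so that it is found at a lower level. The ratio of star to mature reads of 1 precursor therefore compares both arms of the same hairpin within the same library, and it does not change with the scaling of the library. In plants the cut is made in the nucleus by DICER-LIKE1, and which strand is kept depends on its first base and on the stability of the duplex ends.

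The 39 star sequences described here are those of precursors that the authors predicted in *Populus euphratica*, a desert poplar whose leaves change shape as the tree ages. They were taken by name: a row named by a genome scaffold and a precursor number that ends with an asterisk is the star sequence, and the row of the same name without the asterisk is its mature sequence. They made up 39 of the 257 miRNAs listed in every sample, beside 166 annotated miRNAs and 52 predicted mature miRNAs. All 39 had a mature row, and 13 predicted mature miRNAs had no star row.

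Small RNA was sequenced from the second juvenile leaf of buds, in 3 biological replicates of each of 4 leaf types. Li leaves are linear and came from trees of 0 to 3 years, La leaves are lanceolate and came from trees of 4 to 6 years, Ov leaves are ovate and came from trees of 8 to 12 years, and Bo leaves are broad-ovate and came from trees over 20 years old. The labels name no treatment or genotype. Leaf shape and tree age changed together, so they cannot be told apart here. Values are RPM (reads scaled to a common total over the listed miRNAs, which the authors call TPM). In whole leaves, fewer cells that make an RNA and less of that RNA per cell cannot be told apart.

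Each value was a whole multiple of the smallest value of its sample, so the reads behind it could be recovered. The samples held 199583 to 632114 reads on listed miRNAs, and 1 read was worth 1.58 to 5.01 RPM. A star sequence without a read could still have had up to 4.75 RPM (3 reads) in the deepest sample and up to 15.0 RPM in the shallowest one. Intervals and limits given here cover counting error only.

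Most star sequences were rare. At least 1 read was found for 15 to 23 star sequences per sample, and the medians were 18 for Li, 18 for La, 16 for Ov and 17 for Bo. With at least 2 reads the range narrowed to 13 to 17. Scaled to the depth of the shallowest sample, 14.3 to 18.1 star sequences would have been seen. The samples of Li overlapped with those of every other leaf type. All Ov samples (14.3 to 15.0) were below all samples of La (15.9 to 16.4) and of Bo (15.8 to 17.3), and this was not tested.

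Over the 3 samples of a leaf type, Li leaves had 27 star sequences, La leaves 26, Ov leaves 23 and Bo leaves 24. A core of 15 was seen in all 4 leaf types, and 10 of these had reads in every one of the 12 samples. Another 6 were seen in 3 leaf types and 4 in 2 leaf types.

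The remaining 14 star sequences were seen in 1 leaf type, and each of them in a single sample with 1 or 2 reads. Those seen in Li were NW_011499870.1_8021*, NW_011499918.1_13108*, NW_011500139.1_25653* and NW_011500197.1_26944*. Those seen in La were NW_011500122.1_25017*, NW_011500766.1_32642* and NW_011500245.1_27715*. Those seen in Ov were NW_011506337.1_38947*, NW_011499851.1_3625* and NW_011499965.1_16822*. Those seen in Bo were NW_011499846.1_1010*, NW_011499853.1_4330*, NW_011499884.1_9869* and NW_011500547.1_31396*. So few reads cannot show whether they were absent elsewhere. When 2 reads in a sample were asked for, no star sequence was seen in Li only or in Bo only, while 3 were seen in La only and 2 in Ov only.

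**Figure D1:**
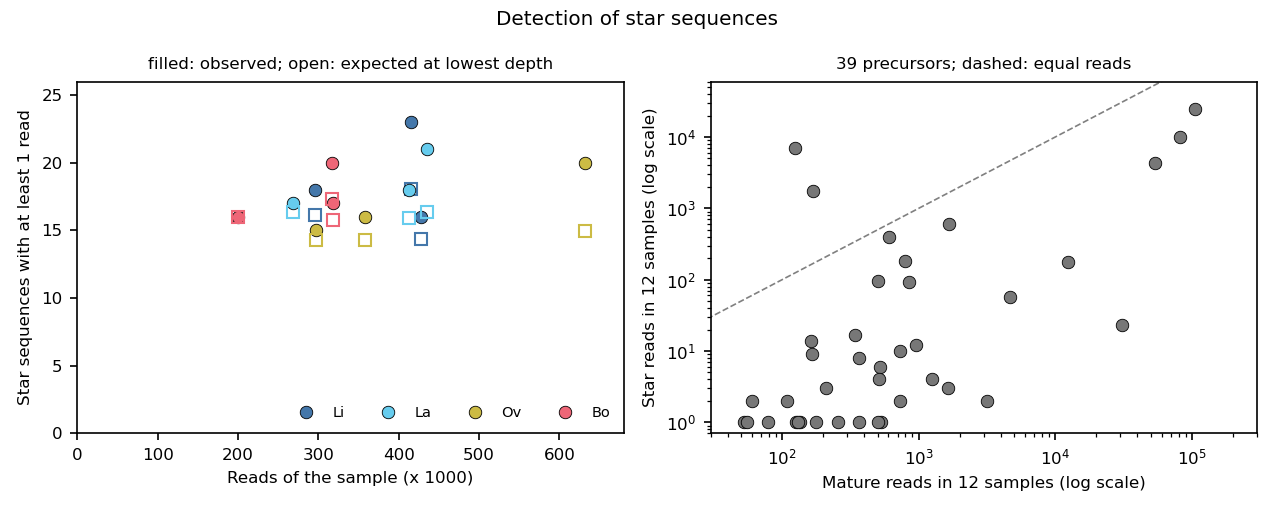
Left, the number of the 39 star sequences with at least 1 read (filled points) against the depth of each of the 12 samples in units of 1000 reads, with the number expected at the depth of the shallowest sample (open squares), coloured by leaf type. Right, star reads against mature reads of the 39 precursors summed over the 12 samples, both on log scales, with a dashed line at equal reads; 2 precursors lie above the line.

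A few star sequences held nearly all of the reads. Together the 39 had 50045 reads in the 12 samples, against 306738 reads for their mature sequences. NW_011499886.1_10127* alone held 50.1% of the star reads, NW_011499875.1_8560* 20.2%, NW_011500147.1_25812* 14.2%, NW_011500334.1_29125* 8.55% and NW_011499947.1_15479* 3.45%, which sum to 96.5%. At the other end, 11 star sequences had 1 read in all 12 samples together and 19 had at most 4 reads. The 20 with 5 or more reads were those with a mean of at least 1 RPM, and only these 20 could be tested.

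The most abundant mature sequences did not all have an abundant star sequence. For the 5 precursors with at least 10000 mature reads, the star reads ranged from 23 to 25060. The low end was NW_011500067.1_22368* (chosen after its values were seen), with 23 reads against 30921 mature reads, a star share of 0.0743%. For the 29 precursors with fewer than 1000 mature reads, the star reads ranged from 1 to 7125 with a median of 3. The mature sequences with a star row had 53 to 106014 reads with a median of 503, against 22 to 1502 reads with a median of 77 for the 13 predicted mature miRNAs without one.

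In position the precursors were spread widely. They lay on 35 scaffolds of the genome assembly PopEup_1.0, 21 on the plus strand and 18 on the minus strand, and were 46 to 91 bases long with a median of 70. The 10 precursors with star reads in every sample were 52 to 88 bases long with a median of 79.5, and the other 29 were 46 to 91 bases long with a median of 67. Only 3 scaffolds held more than 1 of them, and the nearest pair, NW_011499850.1_2817* and NW_011499850.1_2972*, was 50134 bases apart. Genes at these positions were not analysed here.

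As a share of both arms, the star sequence was below 1% of the reads of its precursor in 14 of the 39, between 1% and 10% in 16, between 10% and 50% in 7 and above 50% in 2. The median was 1.39% and the range ran from 0.0635% for NW_011499895.1_11018* to 98.3% for NW_011500147.1_25812*. The 18 annotated miRNAs listed with both a 3p and a 5p row give a comparison within the same libraries. The less abundant arm of the 39 predicted precursors had a median of 1.39% of the reads and a range of 0.0635% to 39.4%, while that of the 18 annotated miRNAs had a median of 16.1% and a range of 0.130% to 42.8%. This is a description of the 2 lists, without a test, because predicted and annotated rows entered the files by different routes.

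Both star sequences above 50% went against the name. NW_011500147.1_25812* lies on the precursor at NW_011500147.1, 171855 to 171920, plus strand. Its star level was 1935, 1480 and 1598 RPM in Li, 1213, 1675 and 3219 RPM in La, 1210, 1596 and 1870 RPM in Ov, and 1353, 1365 and 1064 RPM in Bo. Its mature sequence had 4 to 20 reads per sample. The arm named star was thus the dominant one in all 12 samples, with 98.3% of the reads of both arms (exact 95% interval 97.9% to 98.6%).

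The star to mature ratio of this precursor was 115, 106 and 166 for Li, 52.8, 28.1 and 78.1 for La, 38.2, 59.4 and 51.5 for Ov, and 54.0, 48.0 and 28.2 for Bo. Every Li sample was above every sample of the other leaf types. The difference did not pass the adjusted test in any pair, with a log2 change of -1.53 (SE 0.50, adjusted p = 0.13) in Bo/Li, -1.30 (SE 0.50, adjusted p = 0.17) in Ov/Li and -1.30 (SE 0.50, adjusted p = 0.30) in La/Li. The mature level averaged 13.5 ± 3.65 RPM (Li), 41.3 ± 18.4 RPM (La), 31.6 ± 4.70 RPM (Ov) and 30.4 ± 6.54 RPM (Bo; SD, n = 3 each), and its differences did not pass either (lowest adjusted p = 0.24).

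NW_011499947.1_15479* lies at NW_011499947.1, 93670 to 93752, minus strand. It had 179, 289.9 and 371 RPM in Li, 870.5, 183 and 252 RPM in La, 709, 309 and 435 RPM in Ov, and 215, 300.1 and 97.3 RPM in Bo. Its mature sequence again had few reads, and the star arm was the higher one in every sample, at 2.58 to 26 times the mature arm. Pooled over the 12 samples it had 91.1% of the reads of both arms (exact 95% interval 89.8% to 92.4%). The La and Ov samples spread widely, and the lowest P of the Bo/Ov pair among the star sequences was its log2 change of -1.30 (SE 0.62, adjusted p = 0.34).

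In 2 further precursors the star arm was above the mature arm in part of the samples. NW_011499850.1_2968* (NW_011499850.1, 489230 to 489291, minus strand) had a ratio of 1.36 in Li1 and 1.41 in La2, and 0.154 to 0.889 in the other 10 samples. NW_011500547.1_31396* had 1 star read and no mature read in Bo2.

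**Figure D2:**
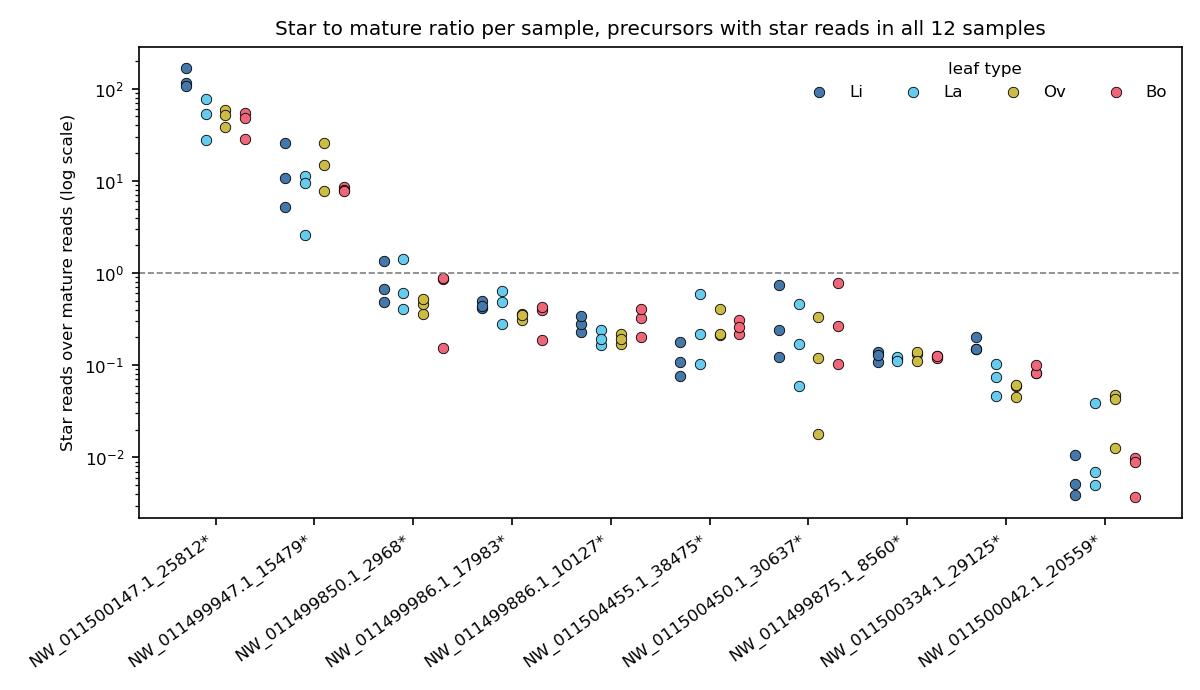
Star reads over mature reads (log scale) in each of the 12 samples for the 10 precursors with star reads in every sample, 1 point per sample and coloured by leaf type, with a dashed line at equal reads. NW_011500147.1_25812* and NW_011499947.1_15479* lie above the line in every sample, and NW_011499875.1_8560* keeps within 0.108 to 0.140.

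The star sequence with the highest level was NW_011499886.1_10127*, on the precursor at NW_011499886.1, 836223 to 836308, plus strand. It had 7719, 5991 and 7316 RPM in Li, 5032, 6447 and 4320 RPM in La, 4994, 4772 and 3849 RPM in Ov, and 8803, 6887 and 4967 RPM in Bo. All Ov samples were below all Li samples, while the Bo samples overlapped with those of both. The Ov/Li change of -0.63 on the log2 scale (SE 0.29) had the lowest P among the star sequences of that pair, and it did not pass after adjustment (adjusted p = 0.21).

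Its mature sequence averaged 25479 ± 6889 RPM (Li), 26444 ± 3812 RPM (La), 23470 ± 4104 RPM (Ov) and 22953 ± 5258 RPM (Bo; SD, n = 3 each). The ratio of star to mature was 0.167 to 0.404, and its group means with SD were 0.283 ± 0.0547 for Li, 0.2002 ± 0.0380 for La, 0.195 ± 0.0242 for Ov and 0.310 ± 0.102 for Bo. The Bo/Ov difference of 0.62 on the log2 scale had an adjusted p of 0.22. With each of the 12 samples left out in turn it ran from 0.40 to 0.90. Only without Bo3 did it pass (0.90, adjusted p = 0.031), and in the other 11 fits it did not (adjusted p up to 0.52).

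The second in level, NW_011499875.1_8560* (NW_011499875.1, 237078 to 237161, minus strand), varied widely within Li, La and Ov. It had 1476, 3760 and 3104 RPM in Li, 1015, 3190 and 2189 RPM in La, 954 to 2409 RPM in Ov and 3017 to 3149 RPM in Bo. The highest level was 3.94 times the lowest, yet the ratio to its mature sequence stayed between 0.108 and 0.140, a range of 1.30 times. Both arms thus moved together across the 12 samples. Of the 10 star sequences seen in every sample, 3 had a narrower range in the ratio than in the level, and in the other 7 the ratio varied more than the level.

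Among the star sequences of intermediate level, NW_011499986.1_17983* (NW_011499986.1, 139308 to 139384, minus strand) had 186 to 245.5 RPM in Bo, above the 84.2 to 157 RPM in Li, but the log2 change of 0.90 (SE 0.44) did not pass the test (adjusted p = 0.26). Its mature sequence had 458 to 989 RPM in Bo, against 203 to 354 RPM in Li, and its log2 change of 1.39 (SE 0.45) did not pass either (adjusted p = 0.059). NW_011499850.1_2968* had 12.6 to 90.2 RPM in Bo, against 60.8 to 257 RPM in Li, and the samples overlapped. NW_011504455.1_38475* (NW_011504455.1, 771 to 822, minus strand) had 11.5 to 82.1 RPM over the 12 samples, with both extremes in La.

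**Figure D3:**
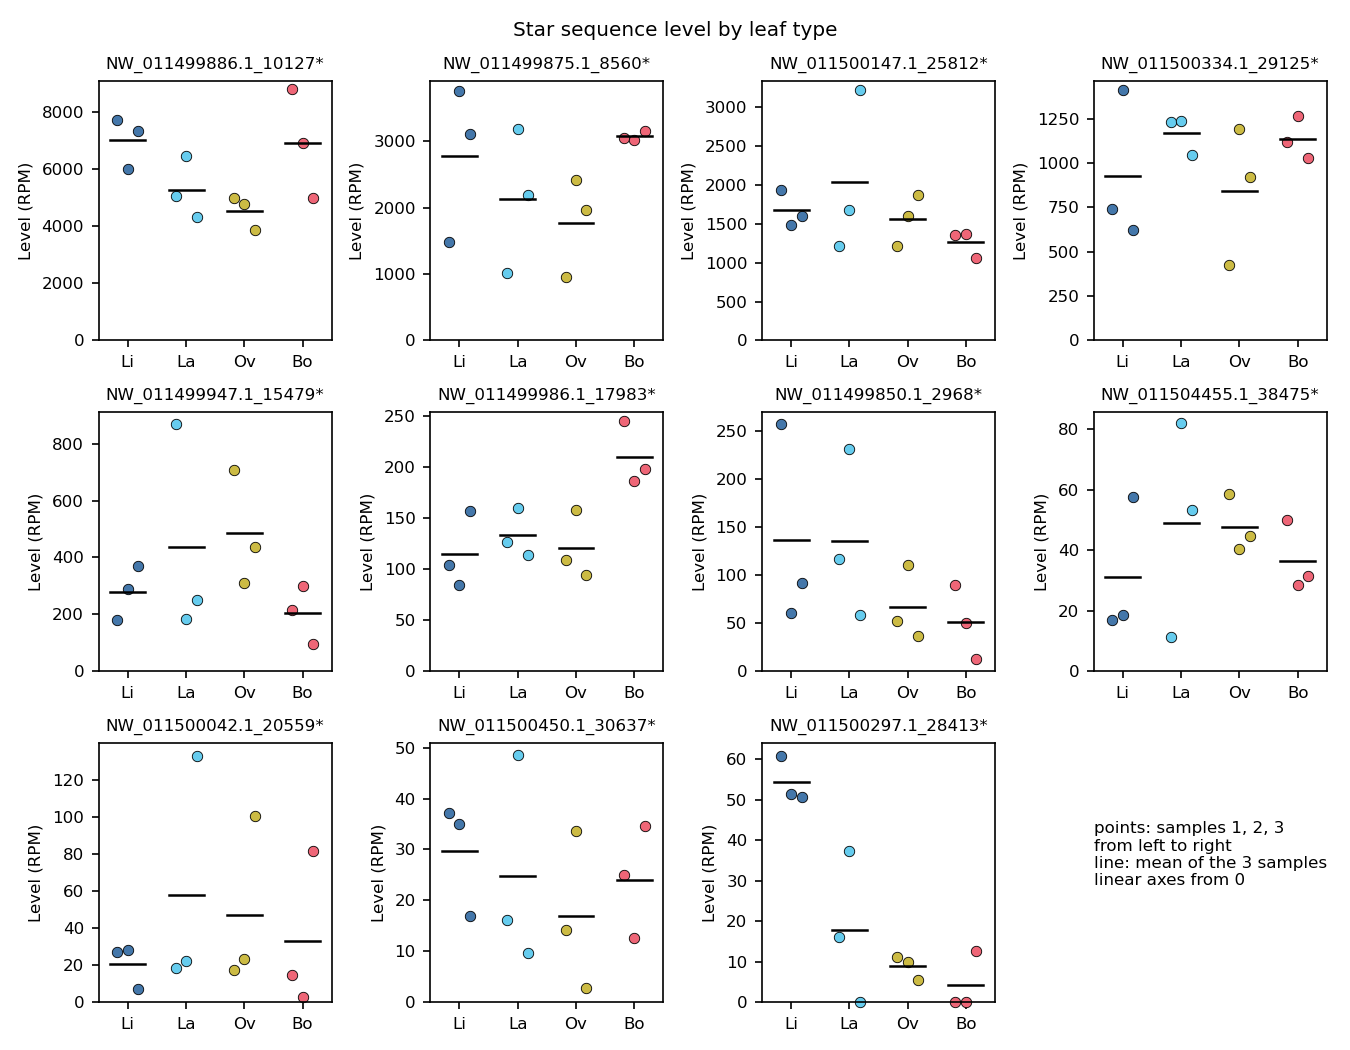
Level in RPM on linear axes from 0 for the 10 star sequences with reads in all 12 samples and for NW_011500297.1_28413*, 1 panel each, with 1 point per sample and a line at the mean of the 3 samples of a leaf type. The ranges of the leaf types overlap in most panels, and the 3 Li samples of NW_011500297.1_28413* stand above all others.

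For the precursor NW_011500334.1_29125 (NW_011500334.1, 87284 to 87365, minus strand), the star to mature ratio was lower in La and Ov than in Li, and it was the only predicted precursor whose ratio passed the adjusted test in any of the 6 pairs. The ratio was 0.152, 0.203 and 0.149 for Li, 0.102, 0.0743 and 0.0457 for La, 0.0447, 0.0597 and 0.0613 for Ov, and 0.0824, 0.0814 and 0.101 for Bo. The 3 Li samples were above the 9 others. The Ov/Li change was -1.60 on the log2 scale (SE 0.29, adjusted p = 0.0054) and the La/Li change -1.24 (SE 0.29, adjusted p = 0.041). The Bo/Li change of -0.92 (SE 0.29) did not pass (adjusted p = 0.13), and neither did the Bo/Ov difference of 0.69 (SE 0.29, adjusted p = 0.22).

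The star level itself did not follow this pattern. NW_011500334.1_29125* had 739, 1410 and 624 RPM in Li, 1229, 1235 and 1047 RPM in La, 424, 1190 and 918 RPM in Ov, and 1117, 1264 and 1027 RPM in Bo. The leaf types overlapped, and no pair passed the test (lowest adjusted p = 0.60).

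The mature level was 4876, 6952 and 4186 RPM in Li, 12040, 16622 and 22892 RPM in La, 9492, 19917 and 14971 RPM in Ov, and 13553, 15519 and 10120 RPM in Bo. Every Li sample was below every other sample. The mature sequence rose in La (log2 change over Li 1.67, SE 0.34, adjusted p = 0.019), in Ov (1.44, SE 0.34, adjusted p = 0.042) and in Bo (1.30, SE 0.34, adjusted p = 0.031). Pooled over the samples of a leaf type, the star arm held 14.9% of both arms for Li (exact 95% interval 14.1% to 15.8%), 6.35% for La (6.02% to 6.69%), 5.21% for Ov (4.90% to 5.55%) and 8.06% for Bo (7.57% to 8.56%).

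The Ov/Li call of the ratio was kept when any 1 of the 12 samples was left out (adjusted p from 0.0010 to 0.038). The La/Li call was kept only without Li1 or La1 and was lost without any other sample, with adjusted p from 0.051 to 0.24 where it was lost. It was also lost without a filter on low values (adjusted p = 0.064), with only the 6 samples of the pair (adjusted p = 0.24) and with a replicate block (adjusted p = 0.096 with all samples and 0.063 with those 6). The Bo/Li change of the ratio passed without La3 (adjusted p = 0.039), a sample of neither leaf type that enters the shared spread.

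**Figure D4:**
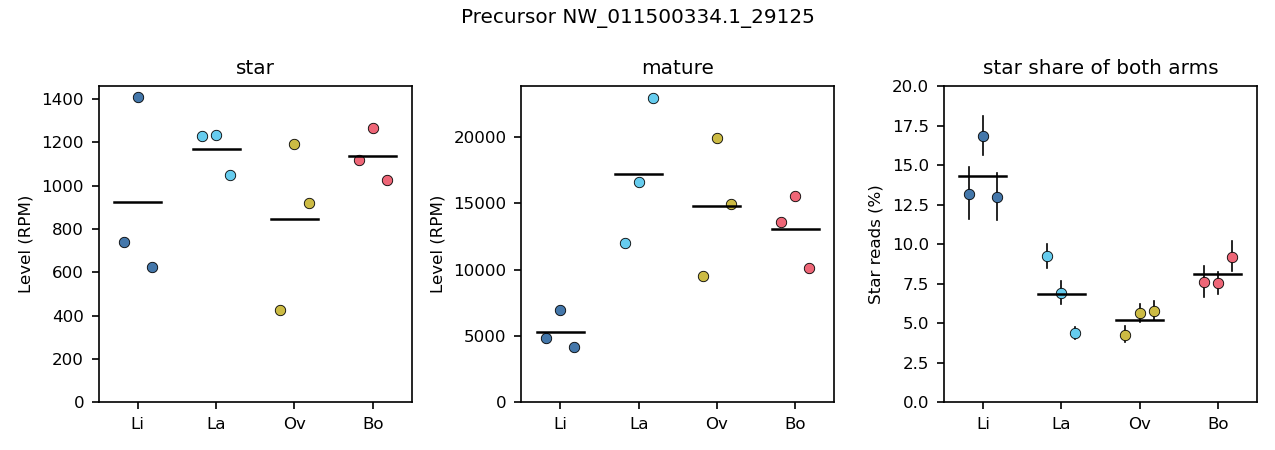
Star level and mature level in RPM and the star share of the reads of both arms in percent for the precursor NW_011500334.1_29125, by leaf type, with 1 point per sample, a line at the mean of 3 samples and, in the right panel, exact 95% binomial intervals. The star panel overlaps between leaf types, the mature panel is lowest in the 3 Li samples and the share is highest in them.

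Over all 37 arm pairs tested, the 20 predicted star and mature pairs and 17 annotated 3p and 5p pairs, few ratios passed the adjusted test. In La/Li 1 of the 20 predicted ratios passed the adjusted threshold of 0.05, against 2.7% of all arm pairs, and in Ov/Li 1 of 20 passed, against 2.7%. Both calls are the one precursor above, and over the 6 pairs together they are 2 of 120 predicted ratios, against 1.35% of all arm pairs. In Bo/Li 0 of 20 passed (0% of all arm pairs), in Ov/La 0 (0%), in Bo/La 0 (0%) and in Bo/Ov 0 (2.7%) by limma. At an unadjusted p under 0.05 the numbers were 2 in La/Li (10.8% of all arm pairs), 4 in Ov/Li (21.6%), 4 in Bo/Li (16.2%), 1 in Ov/La (2.7%), 2 in Bo/La (10.8%) and 3 in Bo/Ov (16.2%). The median log2 change of the 20 predicted ratios was -0.31 in La/Li, -0.44 in Ov/Li and -0.12 in Bo/Li, where that of all arm pairs was -0.09, -0.14 and -0.01.

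A single star sequence passed the adjusted test in level, and only in Bo/Li. NW_011500297.1_28413* lies on the precursor at NW_011500297.1, 159247 to 159292, plus strand, the shortest of the 39. It had 18, 22 and 21 reads in Li, 7, 10 and 0 reads in La, 7, 3 and 2 reads in Ov, and 0, 0 and 4 reads in Bo. The levels were 60.8, 51.4 and 50.6 RPM for Li, 16.1, 37.3 and 0 RPM for La, 11.1, 10.1 and 5.58 RPM for Ov, and 0, 0 and 12.6 RPM for Bo. All Li samples were above the 9 others.

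It fell in Bo relative to Li, with a change of -4.53 on the log2(RPM + 1) scale (SE 1.26, adjusted p = 0.033). On this scale the size depends on the value added before the logarithm. Pooled over 3 samples, 4 reads in Bo against 61 in Li gave a ratio of 0.0895 after scaling for depth (exact 95% interval 0.0236 to 0.241). The same star sequence had the lowest P of La/Li, where the log2 change of -2.67 did not pass (adjusted p = 0.33). The Bo/Li call was lost without Li1, Li2, Li3, Bo1 or Bo2, with adjusted p from 0.0085 to 0.19 over the 12 samples left out in turn, and with 0.1 in place of 1 added before the logarithm (change -6.75, adjusted p = 0.063).

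Its mature sequence fell in the same pair. It had 185, 82.1 and 100.5 RPM in Bo, against 382, 285 and 366 RPM in Li, a log2 change of -1.56 (SE 0.44, adjusted p = 0.034). The ratio of star to mature was 0, 0 and 0.125 in Bo, against 0.159, 0.1803 and 0.138 in Li. Its log2 change of -2.97 did not pass (SE 1.34, adjusted p = 0.29). The size of this change also depends on the value added to both arms, and it ran from -5.19 to -0.81 over the alternatives tried. Pooled over the 3 samples, the star arm held 4.04% of both arms in Bo (exact 95% interval 1.11% to 10.02%), against 13.6% in Li (10.6% to 17.1%). These intervals do not overlap, but they leave out the spread between samples, which the test includes.

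Counted over all pairs, few star levels passed the adjusted test between leaf types. A star sequence that did not pass may still have differed. In Bo/Li 1 of the 20 tested star sequences passed the adjusted threshold, and it was lower in Bo, where 12.5% of the 216 miRNAs tested passed. None passed by limma in La/Li (1.85% of all miRNAs), Ov/Li (4.17%), Ov/La (0%), Bo/La (3.7%) or Bo/Ov (2.78%). At an unadjusted p under 0.05, 1 star sequence passed in Ov/Li (23.1% of all miRNAs), 1 in Bo/Li (22.2%), 1 in Ov/La (1.85%) and 1 in Bo/La (13%), all of them lower in the first leaf type, and 0 passed in La/Li (14.8%) and Bo/Ov (14.4%).

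The lowest P of the pairs not yet given came from star sequences of few reads. NW_011499850.1_2817* (NW_011499850.1, 666720 to 666810, plus strand) had 0, 0 and 0 reads in Bo, against 1, 3 and 3 reads in La (adjusted p = 0.22). NW_011499937.1_14828* (NW_011499937.1, 486531 to 486600, plus strand) had 0, 0 and 0 reads in Ov, against 1, 2 and 2 reads in La (adjusted p = 0.95). All of these counts are at or below the 3 reads that a count of 0 allows, so no fold is given.

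The median log2 change of the 20 star sequences was 0.21 in La/Li, -0.40 in Ov/Li, 0.09 in Bo/Li, -0.23 in Ov/La, 0.06 in Bo/La and 0.65 in Bo/Ov. That of all 216 miRNAs was 0.08, -0.00, 0.09, -0.11, 0.09 and 0.01 in the same order of pairs. The star medians of Bo/Li and Bo/La, but not of the other pairs, change sign with the scaling of the libraries, to -0.16 and -0.12 with relative log expression (RLE) factors.

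The study looked for miRNAs whose level was ordered from Li to Bo, as the leaves grow broader. It also required a significant difference between Li and Bo, whereas the counts that follow are of order alone. Strictly ordered group means were found in 4 of the 20 star sequences, against 18.1% of the 216 miRNAs. NW_011499850.1_2968*, NW_011499895.1_11020* and NW_011500297.1_28413* were highest in Li and lowest in Bo, and NW_011500070.1_22649* was lowest in Li and highest in Bo. Of these, NW_011500297.1_28413* also passed the Bo/Li test. Some of these orders rest on few reads. In the order Li, La, Ov and Bo, NW_011499895.1_11020* had 5, 2, 1 and 0 reads and NW_011500070.1_22649* 1, 3, 3 and 5. Others rest on nearly equal means. The La and Ov means of NW_011500070.1_22649* were 2.38 and 2.39 RPM. The Li and La means of NW_011499850.1_2968* were 136.33 and 135.55 RPM (SD 105 and 88.0, n = 3 each).

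The mature sequences of the same 39 precursors were all tested. After adjustment 1 passed in La/Li (1.85% of all miRNAs), 2 in Ov/Li (4.17%), 7 in Bo/Li (12.5%), 0 in Ov/La (0%), 2 in Bo/La (3.7%) and 1 in Bo/Ov (2.78%). Of the 7 in Bo/Li, 5 were higher and 2 lower in Bo, and 3 had a star sequence abundant enough to be tested, of which 1 passed as well.

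In 2 of them (chosen after their values were seen) the mature arm changed most in log2 size among those called in Bo/Li. The mature sequence NW_011500067.1_22368 had 10101 to 20296 RPM in Bo, against 1333 to 2848 RPM in Li (log2 change 3.04, SE 0.37, adjusted p = 7.9e-05), and its star sequence had 0 to 5 reads in any sample. Its star to mature ratio was lower in every Bo sample than in every Li sample. The log2 change of -3.21 (SE 1.202) did not pass after adjustment (adjusted p = 0.18). With so few star reads its size depends on the value added before the logarithm. The pooled star share was 0.0483% in Bo (exact 95% interval 0.0194% to 0.0994%), against 0.304% in Li (0.122% to 0.625%). The mature sequence NW_011500122.1_25017 had 0, 1 and 1 reads in Bo, against 84, 39 and 58 reads in Li (log2 change -5.90, SE 0.88, adjusted p = 0.00038). Its star sequence had 2 reads, both in La1.

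Summed over the 39 precursors, the share of star reads among star and mature reads depends on which arm is called star. With the arms as named, the share was 16.5%, 17.1% and 18.2% for Li, 13.4%, 13.9% and 12.6% for La, 14.6%, 11.8% and 12.2% for Ov, and 15.3%, 13.6% and 10.1% for Bo. With these names the Li samples lay above all others. Counting error alone left a gap, with an exact 95% interval of 16.0% to 17.0% for Li1, the lowest of the Li samples, and 14.8% to 15.8% for Bo1, the highest of the others. Star and mature were then exchanged for NW_011500147.1_25812 and NW_011499947.1_15479, whose arm named star was the dominant one. The share was then 13.8% to 15.6% (Li), 8.85% to 12.1% (La), 9.24% to 11.5% (Ov) and 9.03% to 13.8% (Bo). Li and Bo overlapped only in that Li1 (13.767%) was slightly below Bo1 (13.769%). Li2 (14.9%) and Li3 (15.6%) were still above all samples of the other leaf types. No test was made of this sum.

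The sum is carried by few precursors. Without NW_011499886.1_10127 the share ranged over 13.7% to 14.5% (Li), 10.97% to 12.6% (La), 10.2% to 11.6% (Ov) and 7.49% to 10.02% (Bo), and the Li samples were again above the others. With the arms exchanged as well, the ranges were 7.92% to 11.1% (Li), 5.81% to 8.24% (La), 5.65% to 7.05% (Ov) and 6.04% to 7.57% (Bo), and Li and La overlapped. As a share of all reads on listed miRNAs, star sequences took 1.31% ± 0.0448 (Li), 1.15% ± 0.184 (La), 0.955% ± 0.107 (Ov) and 1.30% ± 0.216 (Bo; SD, n = 3 each), and here the Li samples overlapped with those of La and Bo.

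**Figure D5:**
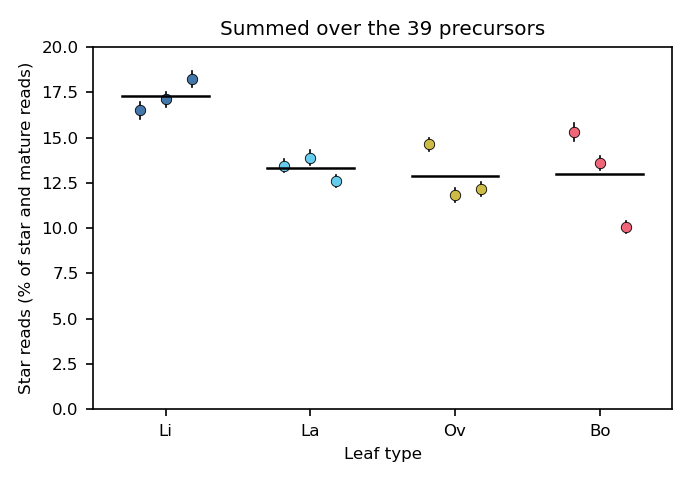
Star reads as a percentage of star and mature reads summed over the 39 precursors, by leaf type, with 1 point per sample, exact 95% binomial intervals for counting error and a line at the mean of 3 samples. The 3 Li samples, at 16.5% to 18.2%, lie above the 9 other samples, which reach from 10.1% to 15.3%, with the arms as named. With the arms of the 2 precursors dominated by their star sequence exchanged, which is not drawn, Li and Bo overlap slightly. Li1 is then at 13.767% and Bo1 at 13.769%.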

How the data were processed

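Known miRNAs were named by the authors through perfect matches to miRBase 21. They predicted further precursors with miRDeep2 and took the star sequences from the hairpins. The deposited values are RPM, named TPM by the authors: reads scaled to a common total of 1000000 per sample. The counting of reads that match several sequences is not stated in what was read here.

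All 3084 values were whole multiples of 1 read (tolerance 0.001). The recovered reads were used for depth, detection and exact intervals, but no count model was fitted: samples held only 76 to 93 values of 1 to 20 reads, where 100 are needed. Levels on the log2(RPM + 1) scale were compared with limma 3.58.1 under R 4.3.3, allowing for a variance trend. The 216 miRNAs averaging 1 RPM or more entered 1 fit of all 12 samples, two-sided, with Benjamini-Hochberg adjustment over all 216 in each of 6 pairs. Ratios were compared in the same way on log2((star + 1)/(mature + 1)), adjusted over 37 arm pairs. Because 1 RPM is added to each arm, this tested ratio, unlike that of the reads, depends on the scaling where reads are few. The tests were tried on simulated data with a fixed spread and with changes planted only in rows well above the filter. This check does not cover the rarest star sequences tested. Tables and figures were made with Python 3.11.15, pandas 2.3.3, scipy 1.17.1 and matplotlib 3.10.9.

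The members and lists were chosen with earlier results of these data known. Named by rule were star sequences with an adjusted p under 0.05 in level or ratio, the 8 of highest mean level, the lowest P of each pair, those above their mature sequence, NW_011500297.1_28413*, and those seen in 1 leaf type. Alternatives were the unadjusted threshold, other filters and pseudocounts, RLE scaling, only the 6 samples of a pair, a replicate block and each sample left out. Same-numbered samples of La and Ov deviated together (correlations 0.25, 0.52 and 0.50 over 216 miRNAs). No label says that the numbers mark a shared tree, day or batch, and the main fit did not pair the samples. In the other 5 pairs of leaf types no correlation was over 0.1, and they ran from -0.29 to 0.084.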

Additional observations from a re-analysis of the deposited data

How the results depend on the processing

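Direction under these alternatives was followed for the star level change of lowest P in each pair. It was also followed for the ratios of NW_011500334.1_29125* and NW_011500147.1_25812* over Li, of NW_011499886.1_10127* in Bo/La and Bo/Ov, and of NW_011500297.1_28413* in Bo/Li. None of these turned its direction, but medians over miRNAs did under RLE scaling. The direction of the other changes in the text was not followed. At the unadjusted P of 0.05 the star sequences called were 1 in Ov/Li, 1 in Ov/La and 1 in Bo/La, and the ratios called 2 in La/Li, 4 in Ov/Li, 4 in Bo/Li, 1 in Ov/La, 2 in Bo/La and 3 in Bo/Ov. The Bo/Li star call went to 0 with a pseudocount of 0.1. Without a filter on low values the ratios called were 0 in La/Li, 2 in Ov/Li, 1 in Bo/Li, 1 in Bo/La and 1 in Bo/Ov, and with a pseudocount of 10 they were 2 in Ov/Li and 1 in Bo/Li. With only the 6 samples of the pair the La/Li ratio count was 0. The cause was not tested.

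With the replicate number as a block the La/Li ratio count was 0 in a fit of all samples. In a fit of the 6 samples, added after seeing the data, the block gave 0 star calls in Bo/Li, 0 ratio calls in La/Li, 1 in Bo/Li and 1 in Bo/La. For the same-numbered La and Ov samples, whose pairing no label gives, the block left both Ov/La counts at 0. It changed no other count.

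When each sample was left out, the star calls were 0 to 1 in Bo/Li and 0 in the other pairs, and the ratio calls 0 to 1 in La/Li, 1 in Ov/Li, 0 to 1 in Bo/Li (1 without La3), 0 in Ov/La, 0 in Bo/La and 0 to 1 in Bo/Ov (1 without Bo3). The mean star share then ranged over 16.8% to 17.7% (Li), 13.0% to 13.7% (La), 12.0% to 13.4% (Ov) and 11.8% to 14.5% (Bo). Without the precursor with the most star reads it was 14.0% for Li, 11.6% for La, 10.7% for Ov and 8.71% for Bo, and as a median over precursors 0.138%, 0.0754%, 0.0669% and 0.0277% in that order, with 0 in 2 of the 3 samples of each leaf type. With star and mature exchanged in the 2 precursors dominated by the arm named star, an alternative added after seeing the data, the means were 14.8% (Li), 10.5% (La), 10.2% (Ov) and 11.6% (Bo), and also without the precursor with the most star reads 9.45%, 7.10%, 6.27% and 6.69% in that order. RLE scaling moved the median log2 change of all miRNAs from 0.09 to -0.11 in Bo/Li, from 0.09 to -0.05 in Bo/La and from 0.01 to -0.16 in Bo/Ov, turned the star medians of Bo/Li and Bo/La to -0.16 and -0.12, and changed no count of calls. Depth limits the 19 star sequences with at most 4 reads, for which no difference between leaf types could be tested.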

Other observations

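NW_011500042.1_20559* (chosen after its values were seen) was high in the third sample of 3 leaf types. It had 27.0, 28.1 and 7.23 RPM in Li, 18.4, 22.4 and 133 RPM in La, 17.4, 23.5 and 100.5 RPM in Ov, and 15.0, 3.16 and 81.6 RPM in Bo. Its ratio to the mature sequence was 0.0127 to 0.0476 in Ov, above the 0.00387 to 0.0107 in Li. The log2 change of 2.27 (SE 0.80) did not pass in limma after adjustment (adjusted p = 0.14). The ratio did not simply follow the star level. It was highest in Ov1, where the mature sequence had 365 RPM, its lowest level in any sample. In Bo3 the mature sequence had 9143 RPM and the ratio was 0.00893, within the range of Li.

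NW_011500014.1_19267* (chosen after its values were seen) had 4, 8 and 8 reads in Bo, against 0, 3 and 2 reads in Li. Pooled over 3 samples the Bo level was 5.46 times the Li level (exact 95% interval 1.99 to 18.6, counting error only). No pair of this star sequence passed the test.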
